A study of Mus musculus with 9 samples.

Results

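The core circadian clock genes were followed in islets of mice kept on diets of different fat content. The members were the 10 genes Clock, Npas2, Per1, Per2, Per3, Cry1, Cry2, Nr1d1, Nr1d2 and Dbp, taken by name from the 56941 rows of the count table, and all 10 passed the filter on low counts that left 18548 genes for testing. Islets, small endocrine clusters scattered through the pancreas that hold the insulin-secreting beta cells, came from male wild-type C57BL/6J mice that were 15 weeks old when the diets began. The mice ate a low fat diet with 10% fat (LFD, 3 libraries), a high fat diet with 60% fat (HFD, 2 libraries) or a ketogenic diet with 89.9% fat (KD, 4 libraries) for 9 months, to ask how a ketogenic diet affects transcripts of islets. The labels do not say whether a library holds islets of 1 mouse or of several, so p-values measure the spread between libraries, and they give no clock time of collection, so the mean level of a gene and its phase in a daily cycle cannot be told apart.

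The circadian clock is a transcriptional feedback loop. CLOCK, or its relative NPAS2, pairs with BMAL1 and binds E-box sequences to turn on the Per and Cry genes, and the PER and CRY proteins then enter the nucleus and repress that pair. A second loop runs through Nr1d1 and Nr1d2, which encode the nuclear receptors REV-ERBα and REV-ERBβ that repress Bmal1, and Dbp encodes an activator that binds D-box sequences and is a direct target of CLOCK and BMAL1. In beta cells this clock is known to help time insulin secretion.

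Promoters are shown for 4 members that the results below turn on, so that the elements named above can be seen. RefSeq windows from 250 bases before to 50 bases after a gene start were matched for 9 of the 10 members (all but Per2), 12 windows in all, and the 250 bases before the start are printed on the gene's strand in the GRCm38.p6 build of that table, which is not the GRCm39 build that the submitters' processing notes name. Capitals mark an E-box (CACGTG), an E′-box (CACGTT, or AACGTG on the other strand) or a D-box (TTATGTAA or TTATGCAA), and no matches overlapped in these windows.
Per3, chr4:151044666-151044915, minus strand: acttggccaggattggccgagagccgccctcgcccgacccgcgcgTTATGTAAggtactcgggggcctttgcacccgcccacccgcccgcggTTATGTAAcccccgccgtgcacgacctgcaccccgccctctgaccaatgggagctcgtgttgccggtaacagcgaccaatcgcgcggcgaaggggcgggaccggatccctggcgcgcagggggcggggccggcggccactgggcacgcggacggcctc
Per1, chr11:69098699-69098948, plus strand: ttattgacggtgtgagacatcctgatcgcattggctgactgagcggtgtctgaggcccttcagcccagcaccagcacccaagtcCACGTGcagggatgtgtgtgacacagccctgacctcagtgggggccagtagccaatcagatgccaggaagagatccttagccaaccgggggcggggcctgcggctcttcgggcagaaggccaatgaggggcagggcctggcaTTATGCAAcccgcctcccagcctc
Cry1, chr10:85185055-85185304, minus strand: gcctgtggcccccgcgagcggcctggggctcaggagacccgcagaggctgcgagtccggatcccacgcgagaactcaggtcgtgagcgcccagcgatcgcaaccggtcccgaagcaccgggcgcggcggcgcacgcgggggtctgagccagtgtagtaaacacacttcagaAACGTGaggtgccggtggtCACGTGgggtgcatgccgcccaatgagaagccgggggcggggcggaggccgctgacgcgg
Nr1d1, chr11:98775378-98775627, minus strand: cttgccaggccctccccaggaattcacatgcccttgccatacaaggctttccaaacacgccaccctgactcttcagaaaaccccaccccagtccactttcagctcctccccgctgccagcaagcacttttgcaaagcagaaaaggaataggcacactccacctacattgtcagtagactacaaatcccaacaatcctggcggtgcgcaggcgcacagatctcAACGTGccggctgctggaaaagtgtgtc
The Per3 window held 2 D-boxes, beginning at -205 and -158 where the base before the start is -1. Per1 held an E-box at -166 and a D-box at -24, Cry1 an E-box at -60 and an E′-box at -79, and Nr1d1 an E′-box at -28. A second Per1 window, not printed, held 0 of these motifs before its start. For Nr1d1, the bases just after the start were not found in a GENCODE M21 transcript of the gene. Its position of -28 thus rests on the RefSeq start alone. Searched on both strands, CACGTG was present in 2 of the 12 member windows and in 7.15% of 32851 windows of all genes, and CACGTT in 3 and in 4.68%. TTATGTAA was present in 1 and in 0.938%, and TTATGCAA in 1 and in 0.743%. The ROR elements TAGGTCA (2.61% of all windows) and TGGGTCA (3.98%) and the cAMP response element TGACGTCA (1.79%) were in none of the 12. These matches describe letters in a short window and say nothing about binding in these islets.

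Total counts ran from 15513502 to 26588390 per library, and the 10 members together took 7036 to 15595 counts. Markers of beta cells, the insulin-secreting cells that define islets, took 5.54% to 9.22% of counts on LFD, 11.3% to 12.6% on HFD and 1.64% to 12.6% on KD. Both HFD libraries thus lay above all LFD libraries in this share, and its part in the differences below was not tested. The 19 markers of acinar cells, the enzyme-secreting cells around islets, together took 13.6% to 31.2% on LFD, 10.3% to 16.9% on HFD and 17.9% to 54.2% on KD. Of these markers, Amy2a5 went the other way, with 1818 counts over the 3 LFD libraries and 371 over the 4 KD libraries. The KD mean of the acinar share lay 17.9 percentage points above the LFD mean, which did not pass a two-sided exact permutation test (p = 0.143, 35 splits, smallest possible p 0.0286). The 12 lymphocyte markers together took 0.00366% to 0.0193% of counts on LFD, 0.000509% to 0.000799% on HFD and 7.16e-05% to 0.000215% on KD, so the diets did not overlap. In such bulk libraries, fewer cells of a type and less RNA per cell cannot be told apart.

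No core clock gene passed the threshold of an adjusted p below 0.05 between any of the diets in the main test, by edgeR. For KD against LFD, edgeR's quasi-likelihood test called 0 of the 10, against 4.12% of all genes tested, with 1 member at an unadjusted p below 0.05 (22.7% of all genes) and 1 whose libraries did not overlap between the diets (19.7% of all genes). DESeq2 and limma-voom, the latter with sample quality weights that lower the weight of variable libraries, also called 0 members, while calling 9.56% and 10.1% of all genes. The members' log2 fold changes ran from -1.28 to 0.47 with a median of -0.12, beside a median of -0.02 over all genes. For HFD against LFD, edgeR called 0 members and 0% of all genes, with 3 members at an unadjusted p below 0.05 (9.99% of all genes) and 2 without overlap (27.5%). DESeq2 (1.44% of all genes) and limma-voom (0.0593%) called 0 members there as well. For KD against HFD, edgeR called 0 members and 0% of all genes, with 4 members at an unadjusted p below 0.05 (22.7%) and 5 without overlap (33.9%). There DESeq2 called 1 member, Cry1, against 8.18% of all genes, and limma-voom called 0 members and 0% of all genes. The median log2 fold change of the members was -0.58 for HFD against LFD and 0.17 for KD against HFD, beside medians of -0.0017 and -0.04 over all genes. The 3 comparisons share libraries, so their values are not independent of each other.

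**Figure D1:**
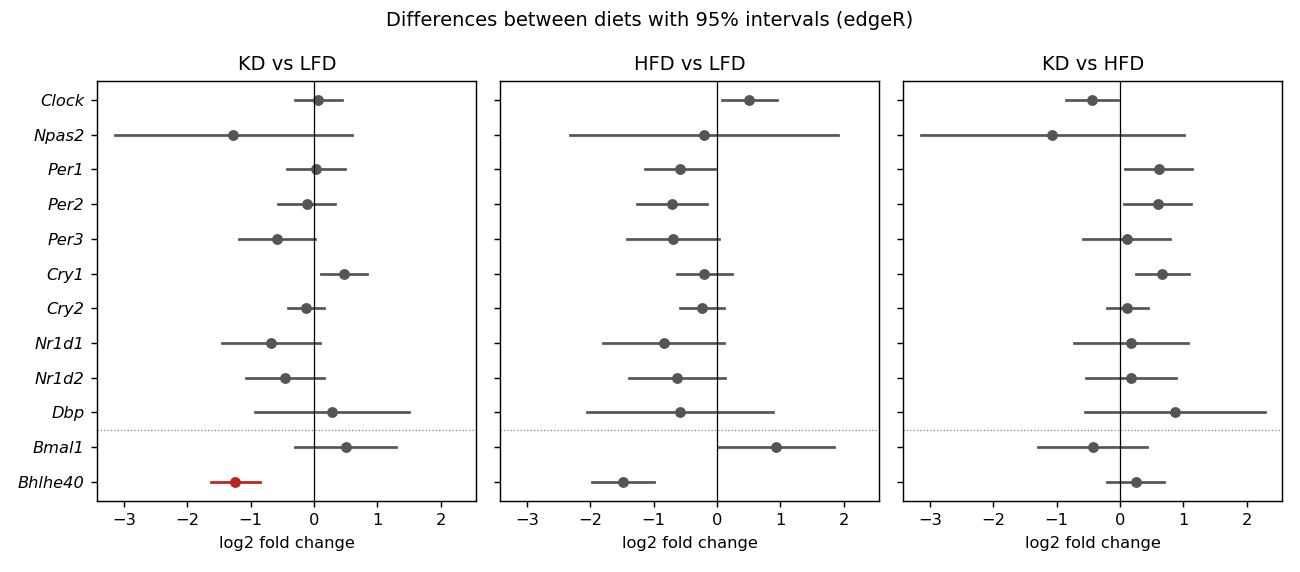
Log2 fold changes (horizontal axis) of the 10 members and of Bmal1 and Bhlhe40 in each comparison, with points for the edgeR estimate and bars for its 95% interval, which is not adjusted for the number of genes. Red marks an adjusted p below 0.05, which of the genes drawn only Bhlhe40 reached, in KD against LFD, where it fell by 1.24.

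Per length of the longest annotated transcript, Nr1d2 and Cry2 were the most abundant members, with 25.4 ± 7.99 and 25.1 ± 2.66 CPM per kilobase (SD over the 9 libraries), where CPM is the count relative to the TMM-scaled library size. Nr1d2 had the higher mean on LFD (31.8 against 27.0 CPM per kilobase) and Cry2 on HFD (22.9 against 20.6) and KD (24.8 against 23.2). Over the 9 libraries they were followed by Per1 with 18.6 ± 4.86, Per2 with 14.3 ± 3.91, Dbp with 13.9 ± 7.54 and Clock with 13.8 ± 2.83 CPM per kilobase. Cry1 had 7.74 ± 1.90, Per3 7.37 ± 2.45, Nr1d1 4.04 ± 1.72 and Npas2 0.136 ± 0.142 CPM per kilobase. This order pools diets with different means. Neighbours in it had overlapping ranges over the libraries except Nr1d1 and Npas2, whose ranges were apart. Npas2 rested on 1 to 44 counts per library.

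Of the activators, Clock had 110, 107 and 144 CPM in LFD replicates 1 to 3, 175 and 168 CPM in HFD replicates 1 and 2, and 97.6, 124, 127 and 155 CPM in KD replicates 1 to 4. The HFD libraries lay above all others, and the LFD and KD libraries covered nearly the same range. The log2 fold change of Clock was 0.51 for HFD against LFD (SE 0.20, interval 0.07 to 0.95, edgeR adjusted p 0.449), -0.44 for KD against HFD (SE 0.19, edgeR adjusted p 0.196) and 0.07 for KD against LFD (SE 0.17, interval -0.30 to 0.44). Npas2, which can take the place of Clock, had 0.0613, 0.314 and 2.06 CPM on LFD, 0.800 and 0.629 on HFD, and 0.156, 0.490, 0.356 and 0.314 on KD. LFD replicate 3 alone held 44 of its 52 LFD counts, and the log2 fold change for KD against LFD, -1.28 (SE 0.85, interval -3.15 to 0.60), was 0.75 without that library. All 4 KD libraries lay below both HFD libraries for Npas2, with a log2 fold change of -1.07 (SE 0.95, interval -3.15 to 1.02, edgeR adjusted p 0.530). Bmal1, the partner of Clock and no member of the set, had 3.68, 4.08 and 3.19 CPM on LFD, 4.25 and 9.60 on HFD, and 2.96, 5.61, 4.01 and 7.80 on KD. It was highest in HFD replicate 2 and KD replicate 4, and against LFD its log2 fold change was 0.93 on HFD (SE 0.42, edgeR adjusted p 0.495) and 0.50 on KD (SE 0.36, edgeR adjusted p 0.442).

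**Figure D2:**
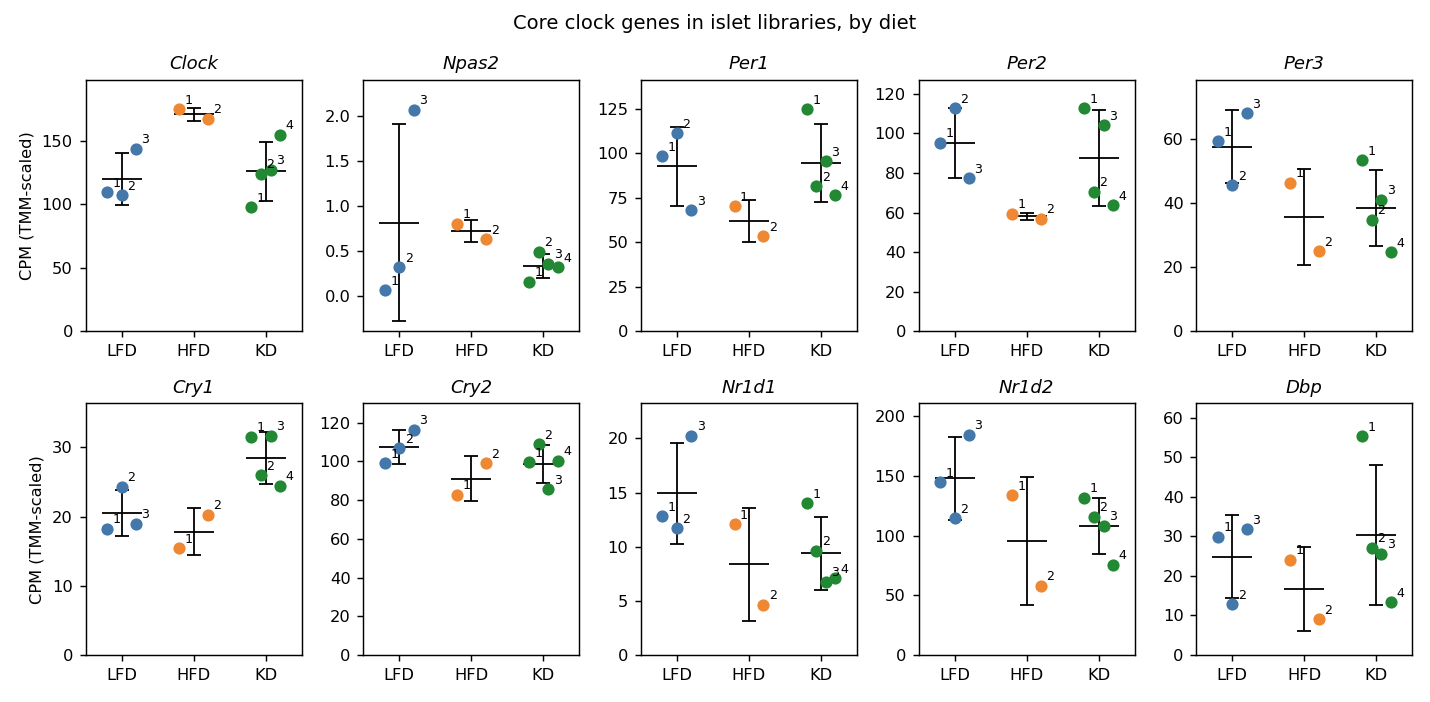
TMM-scaled CPM (vertical axis, a separate scale for each gene) of the 10 members in every library, by diet, with numbered points for the replicates, a long bar for the mean and whiskers for 1 SD (n = 3, 2 and 4). The HFD libraries are highest for Clock, and the 4 KD libraries lie above the others for Cry1, by a gap from 24.3 to 24.5 CPM.

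Among the repressors, Per1 had 98.6, 112 and 68.2 CPM on LFD, 70.5 and 53.6 on HFD, and 125, 81.6, 95.7 and 76.5 on KD. Its LFD and KD libraries overlapped almost completely, and between them Per1 gave a log2 fold change of 0.03 with an interval of -0.43 to 0.49 (SE 0.21, edgeR adjusted p 0.954). Per2, whose protein works together with that of Per1, had 95.3, 113 and 77.3 CPM on LFD, 59.3 and 56.9 on HFD, and 113, 70.4, 104 and 63.8 on KD. Both HFD libraries lay below every LFD and KD library for Per2. The log2 fold change of Per2 was -0.71 for HFD against LFD (SE 0.25, interval -1.27 to -0.16, edgeR adjusted p 0.422) and 0.59 for KD against HFD (SE 0.24, edgeR adjusted p 0.182). For KD against LFD it was -0.12 (SE 0.21, interval -0.57 to 0.34). Per1 gave -0.58 for HFD against LFD (SE 0.25, edgeR adjusted p 0.489) and 0.61 for KD against HFD (SE 0.24, edgeR adjusted p 0.175).

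Per3, the Per gene least needed for rhythm in mice, showed a different order of libraries. It had 59.3, 45.5 and 67.9 CPM on LFD, 46.3 and 25.0 on HFD, and 53.3, 34.7, 41.1 and 24.7 on KD. The lowest values were in HFD replicate 2 and KD replicate 4, and LFD replicate 2 lay within the range of the other diets. Against LFD, the log2 fold change of Per3 was -0.59 on KD (SE 0.27, interval -1.18 to 0.01, edgeR adjusted p 0.227) and -0.69 on HFD (SE 0.33, edgeR adjusted p 0.515). With the acinar score as a covariate, edgeR called Per3 and no other member for KD against LFD, at a log2 fold change of -1.03 (adjusted p 0.0484, range over its alternatives 0.0484 to 0.485), where 7.69% of all genes were called.

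Cry1, which encodes the strongest repressor of CLOCK and BMAL1, was the member whose KD libraries were apart from the rest. It had 18.2, 24.3 and 18.9 CPM on LFD, 15.4 and 20.2 on HFD, and 31.5, 26.0, 31.7 and 24.5 on KD. All 4 KD libraries lay above the other 5, although the lowest KD value and the highest LFD value nearly met. Its mean level was 28.4 ± 3.74 CPM in the KD libraries (SD, n = 4), 20.5 ± 3.34 in the LFD libraries (SD, n = 3) and 17.8 ± 3.42 in the HFD libraries (SD, n = 2). Cry1 thus stood 1.38-fold higher on KD than on LFD, a log2 fold change of 0.47 (SE 0.17, interval 0.10 to 0.83, unadjusted p 0.0164, edgeR adjusted p 0.128), and 0.67 for KD against HFD (SE 0.19, interval 0.25 to 1.09, unadjusted p 0.00481, edgeR adjusted p 0.124). The level of Cry1 had a Pearson r of 0.71 with the acinar share of the libraries, tested below. With the acinar score as a covariate, Cry1 gave 0.36 on the log2 scale for KD against LFD (unadjusted p 0.0729, edgeR adjusted p 0.264) and 0.49 for KD against HFD (unadjusted p 0.0784, edgeR adjusted p 0.515). That score did not overlap between HFD and KD, so acinar content and diet cannot be told apart in the second value. For KD against HFD the adjusted p of Cry1 was 0.0314 by DESeq2 and 0.0408 in edgeR without KD replicate 4, where 9.84% of all genes were called, and its alternatives spanned 0.0314 to 0.515. Cry2, the other cryptochrome, had 99.1, 107 and 116 CPM on LFD, 82.9 and 99.2 on HFD, and 99.6, 109, 85.7 and 100.4 on KD. Its diets overlapped, with log2 fold changes of -0.12 for KD against LFD (SE 0.13, interval -0.41 to 0.16) and -0.24 for HFD against LFD (SE 0.16, interval -0.58 to 0.10).

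In the REV-ERB loop, Nr1d1 had 12.8, 11.7 and 20.3 CPM on LFD, 12.1 and 4.65 on HFD, and 14.0, 9.62, 6.77 and 7.08 on KD. Nr1d2 had 145, 115 and 185 CPM on LFD, 134 and 57.9 on HFD, and 132, 116, 108 and 75.8 on KD. For both genes LFD replicate 3 was highest and HFD replicate 2 lowest, and the diets overlapped. Relative to LFD, Nr1d1 had a log2 fold change of -0.67 on KD (SE 0.35, interval -1.45 to 0.10, edgeR adjusted p 0.281) and -0.84 on HFD (SE 0.43, interval -1.79 to 0.11, edgeR adjusted p 0.539). Nr1d2 had -0.46 on KD (SE 0.28, interval -1.08 to 0.16, edgeR adjusted p 0.361) and -0.63 on HFD (SE 0.34, interval -1.39 to 0.13, edgeR adjusted p 0.564). Between KD and HFD both genes gave 0.17, with intervals of -0.73 to 1.07 for Nr1d1 and -0.54 to 0.89 for Nr1d2.

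Dbp, an output gene with a large daily swing in many tissues, had 29.9, 12.9 and 31.9 CPM on LFD, 24.1 and 9.05 on HFD, and 55.4, 27.1, 25.6 and 13.4 on KD. Every diet held a library at or below 13.4 CPM, and the highest and lowest KD libraries differed 4.13-fold. The interval of its log2 fold change for KD against LFD ran from -0.93 to 1.49 around 0.28 (SE 0.53, edgeR adjusted p 0.796), and that for HFD against LFD from -2.05 to 0.88 around -0.59 (SE 0.64, edgeR adjusted p 0.766). For KD against HFD, Dbp gave 0.87 (SE 0.62, interval -0.55 to 2.29, edgeR adjusted p 0.435).

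The members differed widely in how much they varied between libraries of the same diet. The pooled SD of log2 CPM within diets was largest for Npas2, at 1.14, which rests on few counts and is below the 5 CPM used for comparison. It was 0.83 for Dbp, larger than in 97.8% of the 10861 genes with a mean of at least 5 CPM, whose median was 0.23. It was 0.57 for Nr1d1 (94.1% of those genes had a smaller SD), 0.47 for Nr1d2 (89.5%) and 0.45 for Per3 (88.1%). Per1 and Per2 had 0.33 each, Clock 0.24, Cry1 0.22 and Cry2 0.14, the last larger than in 18.2% of those genes. After Npas2, the genes with the larger SD were those of the REV-ERB loop, the output gene and Per3, and the cryptochromes and Clock lay near or below the median.

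Nr1d1, Nr1d2 and Per3 had like patterns over the 9 libraries. As a measure of likeness, Pearson's r of log2 CPM over the 9 libraries is given with no test, and the libraries share their depth, diet and cell content across all genes. Of 10397 other named genes with a mean of at least 5 CPM, Per3 (r = 0.94) was the most like Nr1d2 and Nr1d1 (r = 0.94) the next, ahead of Upf2. The genes most like Nr1d1 were Bend7 (r = 0.95), Nr1d2 and Atxn3 (r = 0.92), and those most like Per3 were Pan3 (r = 0.96), Epc1 (r = 0.95) and Nr1d2. Dbp ranked 79 from the top for Nr1d2 (r = 0.78), 227 for Per3 (r = 0.73) and 219 for Nr1d1 (r = 0.69). The genes most like Dbp were Ccl25 (r = 0.95), Mfn1 (r = 0.94) and Thsd4 (r = 0.93).

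Bmal1, which REV-ERB proteins repress, ran opposite to these genes. Its r was -0.94 with Per3, 13 from the bottom of the 10397 genes, -0.91 with Nr1d2 (18 from the bottom), -0.84 with Nr1d1 (38 from the bottom) and -0.82 with Dbp (65 from the bottom). The 3 libraries described next were chosen after their values were seen, and single genes lay as far from the mean in others, such as Nr1d1 in KD replicate 3 (-0.57) and Dbp (1.31) and Bmal1 (-0.64) in KD replicate 1. In HFD replicate 2, log2 CPM stood from its mean over the 9 libraries by -1.10 for Nr1d1, -0.96 for Nr1d2, -0.74 for Per3, -1.29 for Dbp and 1.03 for Bmal1. In KD replicate 4 the same genes stood at -0.51, -0.57, -0.76, -0.73 and 0.73. LFD replicate 3 stood the other way, at 0.99, 0.71, 0.70, 0.51 and -0.53. Without HFD replicate 2 the log2 fold change for KD against HFD turned from 0.17 to -0.36 for Nr1d1, from 0.17 to -0.30 for Nr1d2 and from 0.11 to -0.27 for Per3. These values rest on HFD replicate 1 as the only HFD library.

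**Figure D3:**
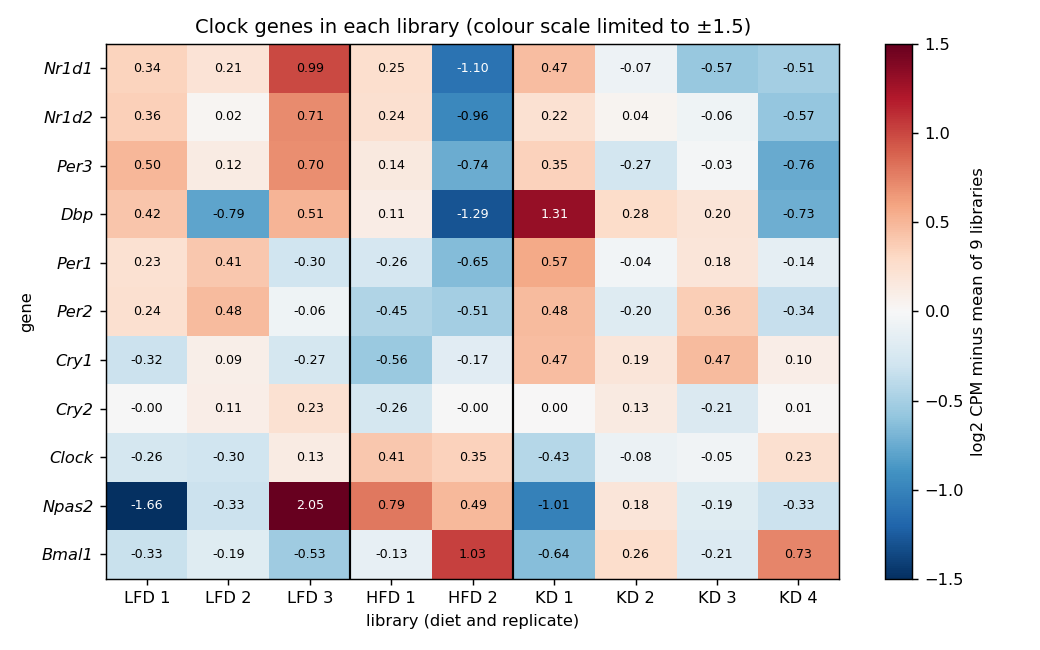
Log2 CPM of the 10 members and Bmal1 (rows) in each of the 9 libraries (columns, by diet and replicate) as the difference from the gene's mean over the libraries, red for higher and blue for lower. Nr1d1, Nr1d2, Per3 and Dbp are low and Bmal1 high in HFD replicate 2 and KD replicate 4, while Cry2 stays within -0.26 and 0.23.

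Per1 and Per2 were like each other, with Clock at the opposite end, though many genes were closer. The r of Per1 and Per2 was 0.91, which placed Per2 at rank 74 for Per1 and Per1 at rank 89 for Per2. The r of Clock was -0.91 with Per1 and -0.91 with Per2, which lay 70 and 78 from the bottom for Clock. The genes most like Per2 were Ccdc88c (r = 0.99), Dot1l (r = 0.98) and Kmt2d (r = 0.98), and those most like Clock were Fam135b (r = 0.98), Fam171b (r = 0.97) and Ppp2r3a (r = 0.97). Per1 and Per2 were less like Nr1d2, with r of 0.41 and 0.44, and Cry1 had an r of -0.18 with Nr1d2 and 0.58 with Per1.

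The levels of the members were also set against the acinar share of the libraries. Against the log2 acinar share, the level of Per1 had a Pearson r of 0.81 (exact permutation p = 0.00908, adjusted p 0.0999) and a Spearman rho of 0.85 (exact permutation p = 0.00607, adjusted p 0.0668) over the 9 libraries. Clock had an r of -0.75 (exact permutation p = 0.0241, adjusted p 0.117) and a rho of -0.75 (exact permutation p = 0.0255, adjusted p 0.0935), and Per2 an r of 0.70 (exact permutation p = 0.0426, adjusted p 0.117) and a rho of 0.75 (exact permutation p = 0.0255, adjusted p 0.0935). Cry1 had an r of 0.71 (exact permutation p = 0.0361, adjusted p 0.117) and a rho of 0.70 (exact permutation p = 0.0433, adjusted p 0.119). Dbp had an r of 0.66 (exact permutation p = 0.0530, adjusted p 0.117) and Npas2 of -0.61 (exact permutation p = 0.0807, adjusted p 0.148). Adjustment was over the 11 relations computed, for the 10 members and Bmal1, and none passed 0.05 after it. Without KD replicates 1 and 3, which lay farthest from the median acinar share, r was 0.73 for Per1, -0.72 for Clock, 0.48 for Per2, 0.37 for Cry1, 0.50 for Dbp and -0.58 for Npas2. For Nr1d1, Nr1d2 and Per3, r ran only from 0.15 to 0.32 (exact permutation p from 0.409 to 0.708). With the acinar score as a covariate, the log2 fold change for KD against HFD went from 0.61 to 0.03 for Per1, from 0.59 to -0.05 for Per2 and from -0.44 to -0.06 for Clock. That of Per1 for KD against LFD went from 0.03 to -0.30. The acinar score, the mean log2 CPM of its markers, was 9.54 and 10.48 on HFD and ran from 10.54 to 12.92 on KD. It did not overlap between these diets, so for KD against HFD acinar content and diet cannot be told apart. The 9 libraries mix the 3 diets, and the labels name no batch, so a batch and the diet cannot be told apart.

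**Figure D4:**
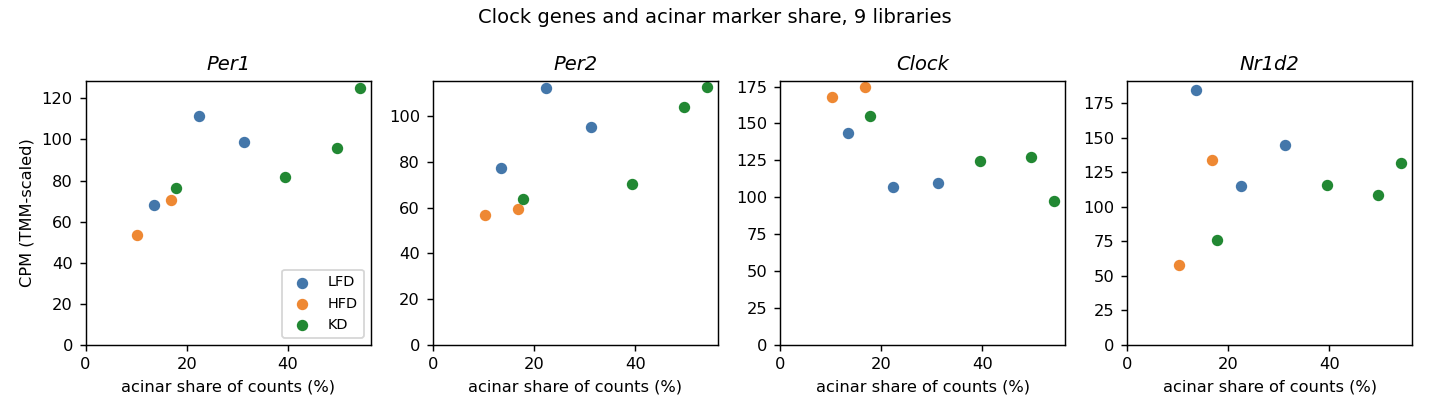
TMM-scaled CPM (vertical axes) of Per1, Per2, Clock and Nr1d2 against the percentage of counts from 19 acinar markers (horizontal axes) in the 9 libraries, coloured by diet. Per1 and Per2 tend to be higher and Clock lower where the acinar share is higher, with r of 0.81, 0.70 and -0.75, and Nr1d2 has an r of 0.32.

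The rest of the clock was read from lists of related genes, of which 47 were distinct and not members. Of 10 other clock loop genes tested, edgeR called 0 higher and 1 lower on KD than on LFD, beside 4.12% of all genes. Their median log2 fold change was 0.02. DESeq2, which called 9.56% of all genes, also called Bmal2. In edgeR, Bmal2 had a log2 fold change of 1.34 (SE 0.49, interval 0.26 to 2.41, edgeR adjusted p 0.139), with overlapping libraries. Bhlhe40, which encodes a repressor (DEC1) that competes for E-boxes and also responds to many acute signals, had 79.6, 63.2 and 50.5 CPM on LFD, 18.7 and 27.2 on HFD, and 28.8, 29.7, 26.3 and 24.2 on KD. All HFD and KD libraries lay below all LFD libraries. Bhlhe40 fell by 1.24 on the log2 scale on KD (SE 0.18, edgeR adjusted p 0.00593) and passed whichever library was left out (edgeR adjusted p up to 0.0327). With the lymphocyte score as a covariate, edgeR called no gene, and that score did not overlap between LFD and KD. The value for Bhlhe40 was then -0.61 (edgeR adjusted p 0.701, range over its alternatives 5.63e-07 to 0.701). The HFD libraries gave Bhlhe40 a log2 fold change of -1.49 against LFD (SE 0.22), which edgeR did not call (adjusted p 0.134). This value passed in 5 of 19 alternatives, among them DESeq2 (adjusted p 2.72e-06), limma-voom (0.0199) and edgeR without LFD replicate 3 (0.00857), over a span of 2.72e-06 to 0.770.

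Of the 9 kinases, ubiquitin ligases and other enzymes that set the stability of clock proteins, 0 were called for KD against LFD (median -0.02, 2 at an unadjusted p below 0.05 beside 22.7% of all genes, 0 called by DESeq2 and 0 by limma-voom beside 9.56% and 10.1%). For 10 clock-controlled and time-of-day genes the median was -0.15, and 4 were at an unadjusted p below 0.05 (22.7% of all genes). Of these 10 genes, 1 was called, lower on KD, beside 4.12% of all genes. This was Klf10, a glucose-responsive repressor under clock control, with 34.9 ± 5.38 CPM in the LFD libraries (SD, n = 3) and 21.9 ± 1.78 in the KD libraries (SD, n = 4), which fell by 0.67 on the log2 scale (SE 0.16, edgeR adjusted p 0.0382). The call of Klf10 was lost when LFD replicate 1 (adjusted p 0.173 by edgeR) or 2 (0.0905) or KD replicate 1 (0.0785), 2 (0.0817) or 3 (0.112) was left out, and its alternatives spanned 0.00695 to 0.940. Of 9 glucocorticoid-induced genes, which include Per1 and follow adrenal hormone rhythms, 1 was called, Dusp1, beside 4.12% of all genes. The median of this list was -0.08.

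Immediate-early genes, which are switched on within minutes of a stimulus and among which Per1 is often counted, behaved otherwise. Of 12 tested, 11 were called lower and 0 higher on KD than on LFD, against 3.14% of all genes called lower, and the median log2 fold change was -2.07. Atf3, a stress-induced transcription factor, averaged 66.7 ± 14.3 CPM in the LFD libraries (SD, n = 3) and 10.5 ± 2.68 in the KD libraries (SD, n = 4), a log2 fold change of -2.66 (SE 0.21, edgeR adjusted p 0.000784). Egr1 went from 131 ± 42.5 to 27.6 ± 4.17 CPM (log2 fold change -2.25), Fos from 147 ± 36.0 to 45.9 ± 7.52 (-1.68), Junb from 103 ± 31.4 to 24.9 ± 4.58 (-2.05) and Fosb from 57.5 ± 8.96 to 13.5 ± 5.86 (-2.09). Dusp1, a phosphatase that is on both lists, went from 91.8 ± 30.5 to 27.9 ± 7.80 CPM (-1.71). The SEs of these 5 ran from 0.19 to 0.28 and the edgeR adjusted p from 0.00164 to 0.0104. Egr2, named because it was the exception, did not pass (log2 fold change -2.96, SE 0.77, edgeR adjusted p 0.0566). In the same libraries Per1 gave 0.03 and Per2 -0.12. Of the 46 related genes tested, 13 were called for KD against LFD (4.12% of all genes), and 11 of these were the immediate-early genes. The number was 8 without KD replicate 3 (0.822% of all genes) and 0 with the lymphocyte score as a covariate (0%). For HFD against LFD and KD against HFD, edgeR called 0 of the 46 tested. For HFD against LFD, DESeq2 called 10 of the 46 (1.44% of all genes) and limma-voom 4 (0.0593%), and 11 of the 12 immediate-early genes were at an unadjusted p below 0.05 (9.99%). For KD against HFD, DESeq2 called 4 of the 46, near its share of all genes (8.18%), and limma-voom 0 (0%), and 4 of the 12 were at an unadjusted p below 0.05 (22.7%). As shares of total counts, summed markers of several other cell types were also higher on LFD than on KD with no overlap. These totals hold the acinar counts given above, and the shares are not TMM-scaled as the gene levels are. The TMM factor was 0.54 in KD replicate 1 and 1.25 in LFD replicate 3. The lack of overlap is thus given for the shares alone and need not hold on the TMM scale. Besides lymphocyte markers, the 6 duct markers took 0.0466% to 0.0519% of counts on LFD and 0.0211% to 0.0302% on KD. Of these, Muc1 went the other way, with 3070 counts over the 3 LFD libraries and 6353 over the 4 KD libraries. The 6 fibroblast and stellate markers took 0.0307% to 0.0516% on LFD and 0.00727% to 0.0221% on KD. The 6 macrophage markers took 0.00574% to 0.0119% on LFD and 0.00132% to 0.00410% on KD. The lymphocyte score, the mean log2 CPM of its markers, ran from 0.79 to 3.33 on LFD and from -2.77 to -2.16 on KD. With this score as a covariate, lymphocyte content and diet therefore cannot be told apart. The part of these cell types in the differences was not tested.

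**Figure D5:**
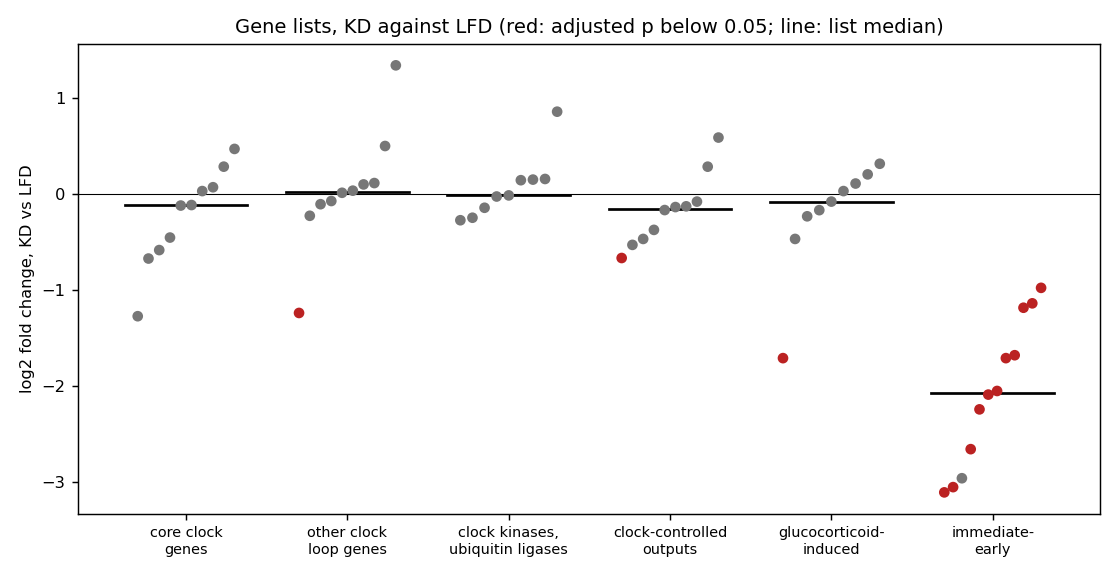
Log2 fold changes for KD against LFD (vertical axis) of the core clock genes and of 5 related lists, with a point for each gene, red where the edgeR adjusted p was below 0.05, and a line for the list's median. The core clock genes have a median of -0.12 and no red point, and the immediate-early genes have a median of -2.07 with 11 of 12 in red.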

How the data were processed

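Bulk RNA-seq counts per gene were used as the authors deposited them, in 1 table of raw counts for 9 libraries. The submitters' processing notes name cutadapt 1.16, STAR 2.7.9a, featureCounts 1.6.3, DESeq2 1.40.2 and the builds GRCm39 and mm39. The annotation release and strand setting are not given in the sources used here. Of 56941 gene rows, 51948 were matched to a symbol and 4993 were not. After edgeR's filterByExpr, 18548 genes were fitted with TMM scaling and edgeR 4.0.16 quasi-likelihood tests in R 4.3.3, with all 3 diets in 1 model and Benjamini-Hochberg adjustment over all genes tested. Levels are TMM-scaled CPM, and log2 CPM used a prior count of 2. An SE is the log2 fold change divided by the square root of its F, and 95% intervals use the test's degrees of freedom. Levels per kilobase used the longest transcript of GENCODE M21, which is on another build. Bmal1 and Bmal2 are listed in the annotation under older symbols. The steps were tested on simulated data.

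Libraries of a diet were counted separately, since their counts differed by more than sampling noise (smallest chi-square per gene 24.0, lowest r 0.941). The members and lists were chosen with earlier results of these data known. Named were all members, Bmal1, up to 5 genes of each list with the lowest p among those called, and the 3 genes most like a member. Alternatives were DESeq2 1.42.0 and its size factors, limma-voom with sample quality weights (limma 3.58.1, called limma-voom in the text), other filters, TMM without acinar and hormone genes, acinar or lymphocyte scores as covariates, the 2 diets compared alone, a replicate block and leaving out each library. All columns of the table were mapped to a library by name.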

Additional observations from a re-analysis of the deposited data

How the results depend on the processing

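Of 566 recomputed log2 fold changes of the members, 520 kept their direction and their side of the threshold, 7 passed it and 39 changed sign. Shares of all genes called are in brackets. The count of core clock genes called for KD against LFD was 1 with the acinar score as a covariate (7.69%). For KD against HFD it was 1 by DESeq2 (8.18%) and 0 to 1 with a library left out (0% to 9.84%). Of the related genes, those called for KD against LFD numbered 13 (4.12%), and 8 to 14 with a library left out (0.822% to 7.4%). They numbered 0 with the lymphocyte score (0%), which cannot be told apart from the diet. For HFD against LFD they numbered 10 by DESeq2 (1.44%), 4 by limma-voom (0.0593%), 6 without a filter (0.261%) and 0 to 7 with a library left out (0% to 1.06%). For KD against HFD they numbered 4 (8.18%), 0 (0%), 2 (1.02%) and 0 to 6 (0% to 9.84%) in the same order.

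The labels do not say whether the replicate numbers pair the libraries. For KD against LFD, the deviations of same-numbered libraries from their diet means had r of 0.22, -0.02 and -0.0026. Without differently numbered libraries set beside them, these values cannot settle it. With the replicate block, 4 core clock genes were called for KD against HFD (Clock, Per1, Cry1 and Dbp), where it called 12.5% of all genes, and of the related genes 10 for HFD against LFD (2.13% of all genes) and 7 for KD against HFD. The block turned the log2 fold change for KD against LFD to -0.040 for Clock and 0.0033 for Per2, and that for HFD against LFD to 1.31 for Npas2.

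Signs also turned for KD against LFD in Npas2 (1.004) and Per1 (-0.12) with limma-voom and its sample quality weights, in Per1 with the 5 CPM filter (-0.029), which left out Npas2, in Per1 (-0.30) and Dbp (-0.54) with the acinar score, and in Clock (-0.58), Per2 (0.52) and Dbp (-1.99) with the lymphocyte score. For HFD against LFD they turned in Npas2 with limma-voom (1.82) and in Per1 (0.24) and Cry1 (0.21) with the lymphocyte score. For KD against HFD they turned with the acinar score in Npas2 (0.45), Per2 (-0.053), Per3 (-0.56), Nr1d1 (-0.16), Nr1d2 (-0.29), Dbp (-0.29) and Bmal1 (0.46), and with the lymphocyte score in Per3 (-0.15), Nr1d1 (-0.10) and Nr1d2 (-0.11). Neither score overlapped between HFD and KD, so this cell content and the diet cannot be told apart there. With a library left out, values for KD against LFD ran from -0.047 to 0.22 for Clock, -1.78 to 0.75 for Npas2, -0.15 to 0.18 for Per1, -0.26 to 0.022 for Per2 and -0.18 to 0.53 for Dbp, and for HFD against LFD from -0.74 to 1.81 for Npas2. For KD against HFD they ran from -0.27 to 0.62 for Per3, -0.0022 to 0.26 for Cry2, -0.36 to 1.01 for Nr1d1, -0.30 to 0.90 for Nr1d2, -0.89 to 0.28 for Bmal1 and -0.41 to 0.087 for Klf10. The cause was not tested. Group sizes of 2 to 4 limit the precision, and for Npas2 the depth does too. Where an HFD library was left out, the HFD values rest on the remaining HFD library alone.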
